A study of Mus musculus with 5 samples.

Results

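The genes described here code for splicing factors and heterogeneous nuclear ribonucleoproteins (hnRNPs), chosen by symbol: every mouse gene of the deposited table that begins with Srsf, Hnrnp, Sf3a or Sf3b, Snrp, Rbm, Prpf or U2af in the form these families use. The rule found 58 of 2926 mouse genes and used no measured value. They comprised 8 SR protein genes, 14 hnRNP genes, 8 SF3A and SF3B genes, 10 genes of Sm and other small nuclear ribonucleoprotein (snRNP) proteins, 10 RBM genes, 5 PRPF genes and 3 U2AF genes, on 18 chromosomes. Hnrnpa1, Hnrnpll and Prpf4b were looked for and were not analysed here.

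The cells were single CD3+ T cells sorted from the ipsilateral, injured hemisphere of the brain of wildtype C57BL/6 mice at day 14 of a photothrombotic stroke, in which light clots the vessels of the cortex. All animals had the stroke. Trained mice ran on wheels from day 2, untrained mice did not, and the labels give no age and no number of animals per plate. Untrained samples 1 and 2 gave 144 and 190 cells, and trained samples 1, 2 and 3 gave 66, 124 and 168 cells, each sorted into wells of a 384-well plate and read by SORT-seq, which gives every well its own barcode.

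Splicing removes introns from the primary transcript, and it is carried out by the spliceosome, a machine built from small nuclear RNAs and their proteins. The Sm proteins (Snrpb, Snrpd1, Snrpd2, Snrpd3, Snrpe, Snrpf and Snrpg) form the ring around those RNAs, U2AF recognises the end of the intron, SF3A and SF3B place the U2 particle on the branch site, and PRPF proteins serve the assembly and activation of the machine. SR proteins mostly promote the use of exons and hnRNPs often oppose it, so the balance of these families sets which isoforms a cell makes. In T cells such choices shape, among others, the isoforms of the surface phosphatase CD45, and the splicing machinery is known to rise with activation and growth.

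The values were scores, not counts: across the table they ran from -2.12 to 3.74, and 72.7% of them lay below 0. The depth of each sample is therefore unknown, and every difference given is a difference of scores, not of expression. Members were as variable as other genes, with a median SD over cells of 0.553 against 0.536 for all genes, and the median member lay above 0 in 29.2% of cells (26.4% for all genes). The spread differed between samples, from a median member SD of 0.400 in untrained sample 1 to 0.730 in untrained sample 2. In that sample 41 of the 58 members, and 1632 rows of the table, had a mean of 0 within 1e-06 over all cells, so its means over all cells are fixed by the processing. Whether each plate is a separate animal is not in the labels, so the p-values speak only of how these samples vary, which may be technical.

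Promoters are shown for 4 members that mark the range of the results: Hnrnpc and Snrpe, which head the hnRNP and snRNP families in the comparison by T cell marker score, and Rbm34 and U2af1l4, which did not move with the other members. Each is the 250 bases before the start of the gene from RefSeq (GRCm38.p6), written 5′ to 3′ on the strand of the gene, and capitals mark matches to the motifs searched. The windows are chr14:52104022-52104271 on the minus strand for Hnrnpc, chr1:133610281-133610530 on the minus strand for Snrpe, chr8:126971050-126971299 on the minus strand for Rbm34 and chr7:30563090-30563339 on the plus strand for U2af1l4.
Hnrnpc: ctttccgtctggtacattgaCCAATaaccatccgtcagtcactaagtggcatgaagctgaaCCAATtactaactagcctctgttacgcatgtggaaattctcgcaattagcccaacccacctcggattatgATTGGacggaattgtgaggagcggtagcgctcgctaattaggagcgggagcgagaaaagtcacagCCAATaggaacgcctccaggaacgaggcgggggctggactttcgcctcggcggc
Snrpe: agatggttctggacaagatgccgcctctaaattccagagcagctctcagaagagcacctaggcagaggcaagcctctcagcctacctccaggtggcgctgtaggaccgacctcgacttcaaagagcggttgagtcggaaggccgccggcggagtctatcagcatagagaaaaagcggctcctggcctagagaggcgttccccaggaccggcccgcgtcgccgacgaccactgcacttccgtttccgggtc
Rbm34: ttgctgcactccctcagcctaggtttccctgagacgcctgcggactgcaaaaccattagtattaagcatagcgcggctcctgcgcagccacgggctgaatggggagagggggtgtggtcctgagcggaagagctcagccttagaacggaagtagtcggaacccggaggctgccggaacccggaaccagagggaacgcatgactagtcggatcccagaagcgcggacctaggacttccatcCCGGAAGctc
U2af1l4: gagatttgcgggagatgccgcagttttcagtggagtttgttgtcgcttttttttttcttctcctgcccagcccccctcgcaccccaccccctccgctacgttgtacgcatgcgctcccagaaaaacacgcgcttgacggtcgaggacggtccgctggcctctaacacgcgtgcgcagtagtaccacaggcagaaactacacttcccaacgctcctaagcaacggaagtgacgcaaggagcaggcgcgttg

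The Hnrnpc window held 4 CCAAT motifs on either strand, the Rbm34 window held 1 CCGGAAG motif, and the Snrpe and U2af1l4 windows held none of the motifs searched. RefSeq windows were matched for 51 of the 58 members by symbol, all on the chromosome that the deposited table gives, and some members had more than 1 start, which made 67 windows. CCAAT, the motif bound by the factor NF-Y, stood in 50.7% of members' windows, in 969 of the 2849 windows of genes in the table and in 33.8% of all 32851 windows. CCGGAAG, the core motif of ETS factors, stood in 29.9% of members' windows, 15.1% of those in the table and 6.91% of all. GGGCGG, the GC box, was in 53.7%, 58.0% and 32.7%, and TATAAA in 8.96%, 6.56% and 12.4%. CACGTG was found in 10.4% of members' windows and 8.63% of those in the table, TGACGTCA in 2.99% and 2.84%, and AAGATGGCG in 0 of 67 and 1.58%, all near the share in the table. Both strands were searched, no 2 motifs overlapped in the windows shown, and a match in a window is a description of its letters, not a bound site. The median GC content was 59.6% for members and for the genes of the table alike.

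Cells were first divided by a T cell marker score, the mean score of Cd3d, Cd3e, Cd3g, Cd2, Cd247, Lck and Thy1, to ask how far splicing genes vary with the T cell character of the sorted cells. Splicing factor genes were higher in the cells above 0 for this score: 55 of the 58 members passed the test in that direction and 0 in the other. The shift was general, because 83.2% of the 2919 genes tested were higher as well and 5.55% were lower. All 5 samples had a higher value for 54 members (79.1% of all genes) and a lower one for 0 (5.62%). The median difference was 0.264 over members and 0.203 over all genes, and 25 members lay above the upper quartile of all genes (0.303) while 6 lay below the lower one (0.121). The cells above 0 numbered 78, 70, 37, 70 and 90 in untrained samples 1 and 2 and trained samples 1, 2 and 3, and those at or below 0 numbered 66, 120, 29, 54 and 78. The test was limma on the mean score per sample and class, with the sample as a block and Benjamini-Hochberg adjustment over all genes tested.

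All 14 hnRNP genes passed as higher, with a median difference of 0.347. Hnrnpc, which codes for a protein that packages nascent transcripts, had mean scores of 0.249, 0.279, 0.261, 0.265 and 0.213 in the cells above 0 of untrained samples 1 and 2 and trained samples 1, 2 and 3. In the cells at or below 0 the values in the same order were -0.191, -0.163, -0.166, -0.248 and -0.296. The 5 means above 0 all lay over the 5 means at or below 0, while single cells spread widely (SD over all cells 0.645), and the difference of 0.466 ± 0.030 (SE, limma adjusted p = 1.60e-06) was the largest of any member. Hnrnpa2b1, a reader of RNA in splicing and transport, differed by 0.409 ± 0.039 (adjusted p = 9.52e-06), with a smallest sample difference of 0.302 and a largest of 0.546. Hnrnpd, known for binding AU-rich elements, differed by 0.394, Hnrnpk by 0.391 and Hnrnpl, a repressor of CD45 exons, by 0.378. The nuclear scaffold gene Hnrnpu differed by 0.370. Hnrnph1 had the smallest hnRNP difference, 0.139 ± 0.052 (adjusted p = 0.0268), and was the only one whose sign varied, at -0.028 in untrained sample 2 and 0.352 in trained sample 3.

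The Sm and snRNP genes also passed in full, 10 of 10, with a median of 0.331. Snrpe, an Sm ring protein, differed by 0.304, 0.686, 0.301, 0.441 and 0.394 in untrained samples 1 and 2 and trained samples 1, 2 and 3, a mean of 0.425 ± 0.053 (limma adjusted p = 4.78e-05). Untrained sample 2, the sample of widest spread, gave the highest of these values, and the remaining values ran from 0.301 to 0.441. For Snrpg, another ring protein, trained sample 1 stood highest at 0.651 beside 0.302 to 0.435 elsewhere, with a mean of 0.406. Snrpb differed by 0.376, Snrpd3 by 0.357 and Snrpd2 by 0.340. The members with the smallest values in this family were Snrpd1 (0.122 ± 0.035, adjusted p = 0.00709) and Snrpa, a protein of the U1 particle (0.154).

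SR protein genes were higher in 8 of 8, with a median of 0.319. Srsf2 differed by 0.349, Srsf3 by 0.346, Srsf5 by 0.329, Srsf7 by 0.310 and Srsf1 by 0.245, and Srsf10 was lowest at 0.176. Srsf3, which also takes part in the export of messenger RNA, lay between 0.292 and 0.429 in the 5 samples. Srsf2 ran from 0.185 in untrained sample 2 to 0.499 in trained sample 3. Among the RBM genes 9 of 10 passed, with a median of 0.254. Rbm3, a cold-inducible RNA-binding protein, differed by 0.457 ± 0.047 (limma adjusted p = 1.55e-05), the second largest value of all members, with 0.295 in untrained sample 1 and 0.621 in untrained sample 2. Rbm25 (0.353) and Rbm39 (0.351), both regulators of splice site choice, followed.

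The families that act on the branch site and in assembly showed the smaller differences. SF3A and SF3B genes were higher in 8 of 8, with a median of 0.187, from 0.259 for Sf3b1, the branch site factor, down to 0.083 for Sf3a3. PRPF genes were higher in 4 of 5 (median 0.193), led by Prpf38b at 0.296, and U2AF genes in 2 of 3 (median 0.192), with 0.242 for U2af2 and 0.192 for U2af1. The 3 members that did not pass were Rbm34 (-0.049 ± 0.034, limma adjusted p = 0.193), Prpf3 (0.058 ± 0.034, adjusted p = 0.135) and U2af1l4 (0.028 ± 0.030, adjusted p = 0.390). Rbm34 codes for a nucleolar RNA-binding protein, and it was the only member with a negative mean difference, with -0.068, -0.146, -0.002 and -0.047 in untrained samples 1 and 2 and trained samples 1 and 2 and 0.020 in trained sample 3. U2af1l4, a paralogue of U2af1, lay within 0.044 of 0 in every sample among the cells above 0.

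**Figure D1:**
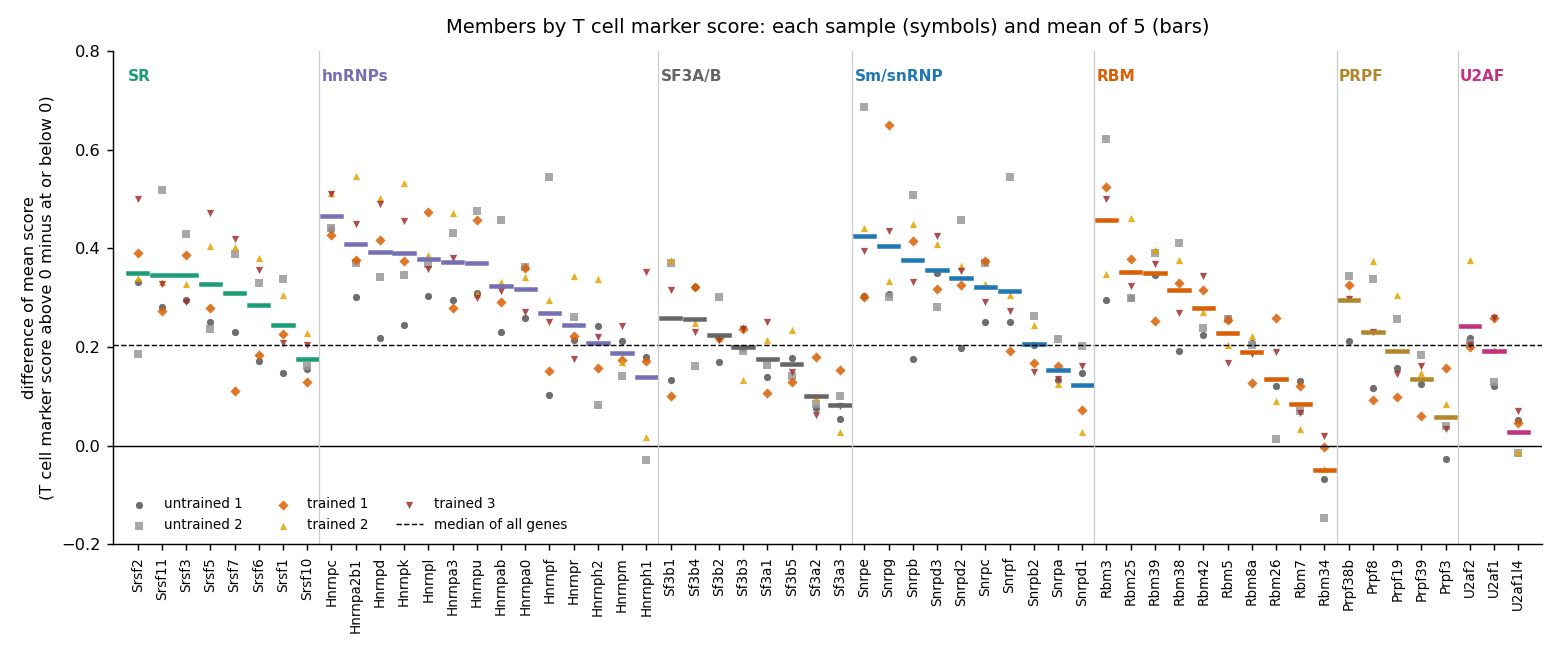
Difference of mean score between cells above and at or below 0 for the T cell marker score, for each of the 58 members grouped by family; symbols are the 5 samples, coloured bars their mean, and the dashed line the median of all genes (0.203). The hnRNP, Sm and SR genes lie mostly above the dashed line, SF3A/B genes on either side of it, and Rbm34 is the only bar below 0.

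Several measures moved with the T cell marker score beside the splicing genes. The noncoding RNA Kcnq1ot1 had a mean score of -0.441 above and 0.932 at or below 0, a difference of -1.37 ± 0.088 (limma adjusted p = 1.50e-06). Genes of the mitochondrial genome stood at 0.254 and -0.242, the 41 spike-in RNAs at 0.001 and 0.092, and the nuclear RNA Malat1 at 0.198 and -0.281. Of other cell types, the 2 measured oligodendrocyte genes (Mbp and Cnp, of 6 listed) stood at 0.216 and -0.210, and the 8 measured macrophage or monocyte genes (of 15) at -0.161 ± 0.197 and -0.055 ± 0.231 (SD, n = 5). No listed gene of microglia, B cells, neutrophils, astrocytes, neurons or endothelium was measured. With the 172 cells above 1 for Kcnq1ot1 left out, of which 9 lay above 0 for the T cell marker score, 39 of 58 members were higher and 0 lower, beside 55.0% and 2.47% of all genes. That alternative was chosen after the data were seen, and the median difference in it was 0.139 over members and 0.121 over all genes.

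The mean of all genes itself differed between the classes, at 0.085 above and -0.124 at or below 0, so the comparison was repeated with each cell's mean over all mouse genes subtracted. On this relative scale 24 of 58 members were higher and 6 lower, where 25.1% of all genes were higher and 24.3% lower. The median was 0.055 over members and -0.005 over all genes. The families divided: hnRNP genes were higher in 9 of 14, Sm and snRNP genes in 6 of 10, SR genes in 4 of 8 and RBM genes in 4 of 10. SF3A and SF3B genes were higher in 0 of 8 and lower in 2, PRPF genes higher in 1 and lower in 1, and U2AF genes higher in 0 and lower in 1. The difference between families was not tested.

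Hnrnpc again had the largest value, 0.258 ± 0.028 (SE, limma adjusted p = 5.52e-05), and its 5 sample values, from 0.213 to 0.295, lay close together. Rbm3 followed with 0.249, Snrpe with 0.217, Hnrnpa2b1 with 0.200 and Snrpg with 0.197. The members that were lower relative to the cell mean were Rbm34 (-0.257 ± 0.034, adjusted p = 2.27e-04), U2af1l4 (-0.180), Prpf3 (-0.151), Sf3a3 (-0.125), Rbm7 (-0.124) and Sf3a2 (-0.109). Each of these 6 had a negative value in all 5 samples. They also varied less over cells, with SDs from 0.358 to 0.520 (median 0.430), than the 24 higher members, with SDs from 0.514 to 0.649 (median 0.592). Of the 14 members named in every comparison, Srsf1, Srsf7, Sf3b1 and U2af1 no longer passed, and U2af1 changed sign, to -0.016.

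**Figure D2:**
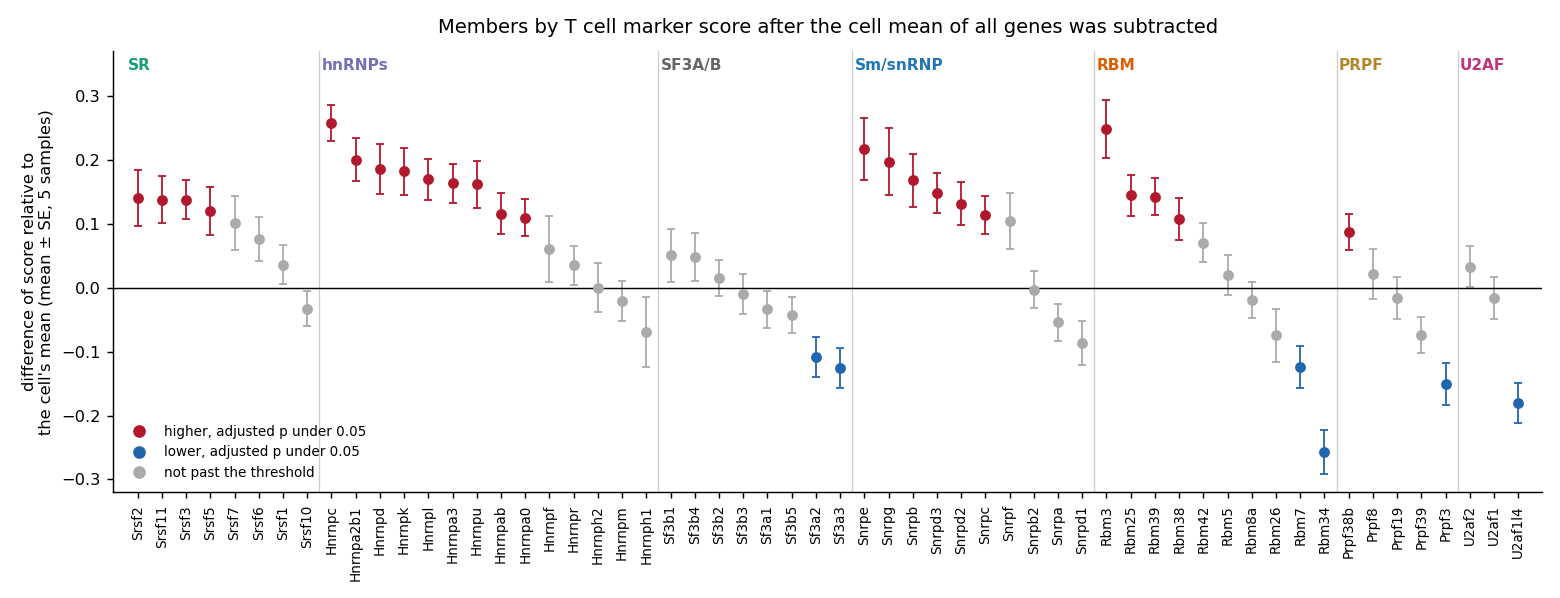
The same comparison after the mean over all mouse genes was subtracted from each cell; points are means of 5 samples with their SE, red and blue mark members past an adjusted p of 0.05. Red points fill the upper part of the hnRNP, Sm, SR and RBM families, the SF3A/B family has none, and Rbm34 is lowest at -0.257.

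When scores were divided by their SD before the cell mean was subtracted, an alternative chosen after the data were seen, 22 members were higher and 6 lower (all genes 26.6% and 20.2%). Of the 24 members higher on the relative scale 21 passed again in the same direction, and all 6 lower ones did, Rbm34 at -0.505 SD units (limma adjusted p = 1.67e-07). By family 8 of 14 hnRNP genes, 7 of 10 Sm and snRNP genes, 3 of 8 SR genes and 4 of 10 RBM genes were higher, beside 0 of 8 SF3A and SF3B genes, 0 of 5 PRPF genes and 0 of 3 U2AF genes.

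Over 4 bins of the T cell marker score, the members' mean was higher at each step, at -0.195 at or below -0.25, -0.037 from -0.25 to 0, 0.054 from 0 to 0.25 and 0.152 above 0.25. All genes passed through -0.164, -0.052, 0.031 and 0.109. The hnRNP genes spanned the widest range, from -0.229 ± 0.046 to 0.196 ± 0.039 (SD, n = 5), and U2AF genes the narrowest, from -0.134 ± 0.042 to 0.075 ± 0.039. The SF3A and SF3B genes did not differ beyond their spread between the middle bins (-0.021 ± 0.044 and -0.009 ± 0.047), while Sm and snRNP genes stood at -0.060 ± 0.047 and 0.109 ± 0.025 there. The bins held 230, 117, 125 and 220 cells, with as few as 10 in a sample in the second bin.

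**Figure D3:**
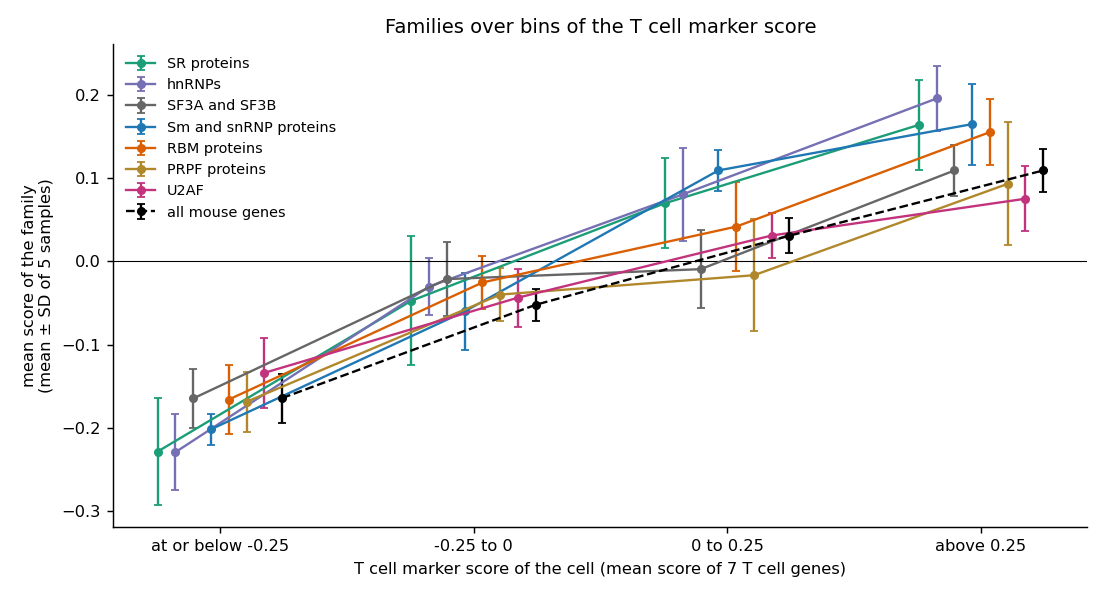
Mean score of each splicing family (coloured lines) and of all mouse genes (dashed) over 4 bins of the T cell marker score, as mean ± SD of 5 samples. The hnRNP line runs from -0.229 to 0.196, and the SF3A/B and PRPF lines change least between the middle bins.

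From cell to cell within a sample, the members' mean followed the mean of all genes. Pearson r was 0.901 to 0.956 in the 5 samples (mean 0.931). With the T cell marker score the members' mean had a mean r of 0.716, where the mean of all genes had 0.784. The mean of all genes had the higher r with that score in all 5 samples. These values describe cells that share a plate and whose single depths are unknown, and they carry no test. Pairs of members had a median r of 0.133, pairs of all genes 0.093 and pairs of SR genes 0.185. With the cell mean subtracted the medians were 0.011 for members, 0.046 for SR genes and -0.002 for all genes, which are weak. The closest pair was Rbm25 and Prpf38b at 0.340, or 0.205 with the cell mean subtracted. Rbm25 (0.496), Hnrnpa2b1 (0.475) and Srsf2 (0.469) had the highest mean r with the mean of the other members, and Rbm34 was the only member with a negative one (-0.102).

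The genes outside the families whose scores were most like the members' mean were Tpt1, Eef1a1, Actb, mtCo1, Rplp0, Rplp1, Rpl13a, Tmsb4x, Rpl13 and Rpsa, with a mean r over 5 samples of 0.752 for Tpt1, the translationally controlled tumour protein, down to 0.702. The gene least like it was Kcnq1ot1, at -0.777.

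Among 76 other measured genes of splicing and RNA processing, from a list of 133, 67 were higher and 2 lower in the cells above 0 for the T cell marker score, where 83.2% and 5.55% of all genes were. Mbnl1, a regulator of alternative splicing in development, differed by 0.679 ± 0.040 (limma adjusted p = 1.19e-06), the RNA helicase gene Ddx5 by 0.521 and the alternative splicing regulator gene Celf2 by 0.416. The 2 lower ones were Scaf11, an SR-related splicing factor (-0.186, adjusted p = 4.45e-04), and Zrsr1, a U2AF-related gene (-0.107, adjusted p = 0.0274). With the cell mean subtracted 16 of the 76 were higher and 13 lower, beside 25.1% and 24.3% of all genes, and their median was 0.003 beside -0.005.

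Cells were next placed by coreceptor gates on the scores: a cell counted as CD8-gated when the mean of Cd8a and Cd8b1 exceeded 0 while Cd4 did not, and as CD4-gated in the reverse case. The members' mean score was 0.042 in CD8-gated, 0.075 in CD4-gated, 0.135 in cells above 0 for both gates and -0.094 in cells above 0 for neither, where all genes had 0.020, 0.046, 0.092 and -0.087. In each sample the cells above 0 for neither gate had the lowest members' mean, between -0.128 and -0.076. The other classes overlapped between samples, and the cells above 0 for both gates numbered as few as 2 in trained sample 2. Sm and snRNP genes were the only family with a higher mean in CD8-gated (0.079) than in CD4-gated cells (0.043), and SF3A and SF3B genes stood at -0.014 and 0.035.

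**Figure D4:**
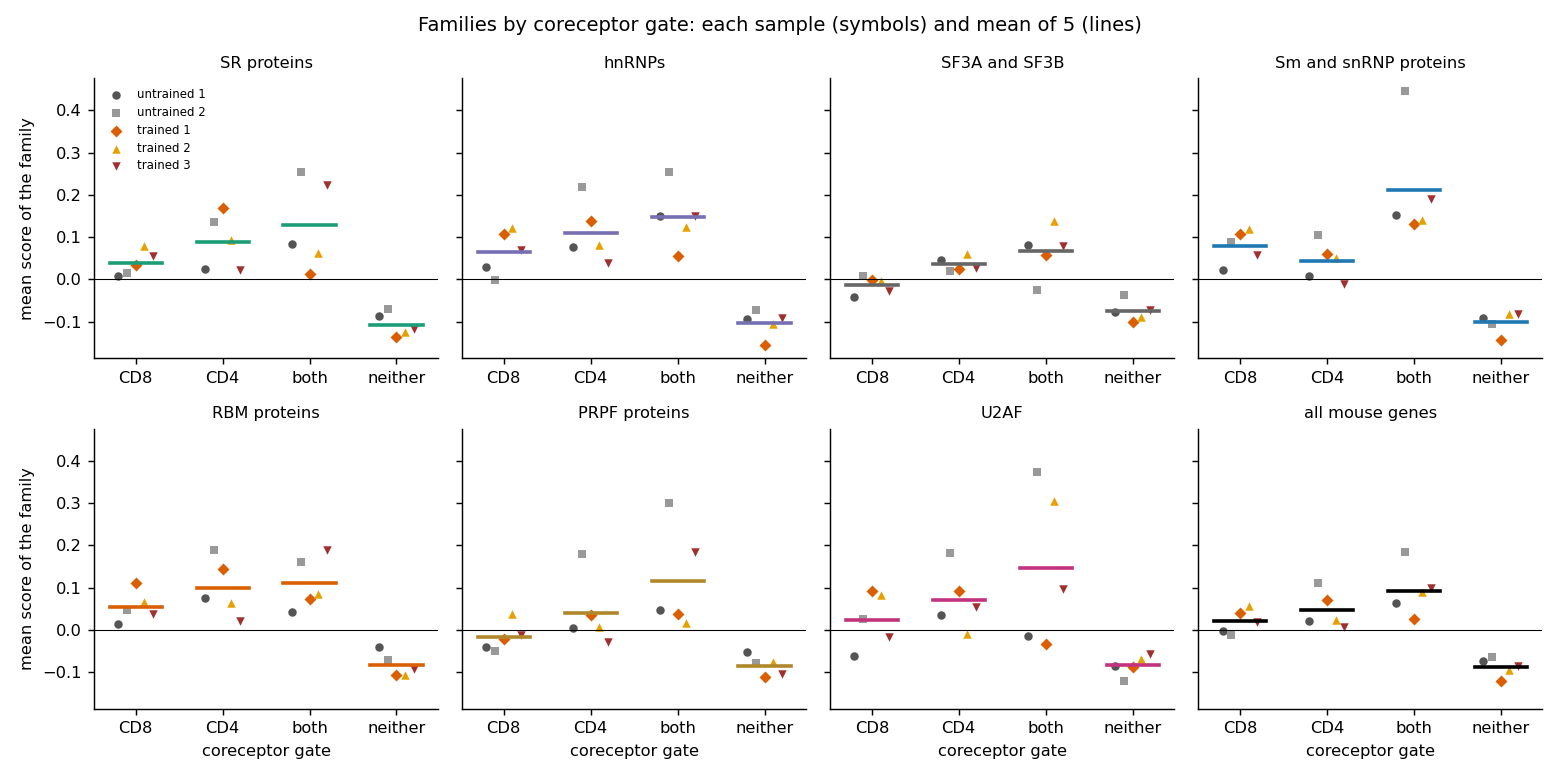
Mean score of each family and of all mouse genes in the 4 coreceptor gate classes; symbols are the 5 samples and lines their mean. In every panel the cells above 0 for neither gate lie lowest on average. The CD8-gated and CD4-gated symbols overlap except for SF3A and SF3B, where all CD8-gated symbols lie below all CD4-gated ones.

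When the CD8 gate was compared with the CD4 gate, 0 of the 58 members passed limma at an adjusted p under 0.05, where 0.171% of 2923 genes did, 0.137% as higher and 0.0342% as lower. At an unadjusted p under 0.05 there were 2 members higher and 7 lower in CD8-gated cells. Of all genes 111 were higher and 272 lower at that level (13.1% in either direction). All 5 samples were higher for 3 members and lower for 8 (4.45% and 9.37% of all genes). The median difference, CD8-gated minus CD4-gated, was -0.030 over members and -0.027 over all genes. Snrpd3, an Sm ring protein, had mean scores of 0.208, 0.243, 0.135, 0.307 and 0.138 in CD8-gated cells of untrained samples 1 and 2 and trained samples 1, 2 and 3. In CD4-gated cells it had -0.008, -0.141, 0.069, -0.078 and 0.051. It was higher in the CD8-gated cells of all 5 samples, by 0.227 ± 0.066 (SE, limma adjusted p = 0.184).

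On the same side lay Snrpg, with 0.183 ± 0.063 (adjusted p = 0.254), and Prpf19, a ubiquitin ligase of the spliceosome, with 0.102 ± 0.058. On the CD4 side, Sf3b4, an SF3B subunit, had -0.219 ± 0.060 (limma adjusted p = 0.172), from -0.367 in untrained sample 2 to -0.137 in trained sample 1. Hnrnph1 (-0.235 ± 0.080) was lower in CD8-gated cells of all 5 samples too, and U2af1 (-0.220 ± 0.071) in 4 of 5. The macrophage or monocyte genes moved with the gates as well, at -0.221 ± 0.155 inside the CD8 gate and 0.002 ± 0.111 inside the CD4 gate (SD, n = 5), and their part in these values was not tested. Among the 14 members named throughout, the values ran from that of U2af1 to 0.064 for Rbm3. With scores divided by their SD, Snrpd3 (adjusted p = 0.0344) passed as higher and Sf3b4 (adjusted p = 0.0490) and Prpf39 (adjusted p = 0.0441) as lower in CD8-gated cells, among 1.81% of all genes. Among cells above 0 for the T cell marker score alone, an alternative chosen after the data were seen, Snrpg passed (0.352, adjusted p = 0.0488) with 0.376% of all genes.

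Cells above 0 for exactly 1 gate had higher splicing scores than cells above 0 for neither: 43 of 58 members passed as higher and 0 as lower, beside 59.9% and 4% of all genes. All 5 samples were higher for 43 members (58%) and lower for 0 (3.42%). The median was 0.168 over members and 0.117 over all genes. All 8 SR genes and all 14 hnRNP genes passed, with 8 of 10 RBM genes, 6 of 10 Sm and snRNP genes, 3 of 8 SF3A and SF3B genes, 2 of 5 PRPF genes and 2 of 3 U2AF genes. Rbm39 led with 0.308 ± 0.051 (limma adjusted p = 2.48e-04), with sample values of 0.138, 0.200, 0.544, 0.373 and 0.286 in untrained samples 1 and 2 and trained samples 1, 2 and 3. Both untrained samples gave the lower values for it, without a change of sign. Snrpe (0.270 ± 0.039, adjusted p = 7.70e-05), Hnrnpl (0.269), Rbm3 (0.262), Srsf3 (0.262) and Snrpb (0.260) followed. Srsf2 (0.175, adjusted p = 0.0227) varied most among the SR genes, from -0.095 in untrained sample 2 to 0.429 in trained sample 1, and did not pass without any 1 of the 3 trained samples (0.112, 0.139 and 0.166).

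These classes also differed in the T cell marker score (0.191 and -0.141) and in Kcnq1ot1 (-0.067 and 0.654). The oligodendrocyte genes stood at 0.097 and -0.125, mitochondrial genes at 0.120 and -0.129, and Malat1 differed by 0.337 ± 0.050 (limma adjusted p = 1.00e-04). The part of the oligodendrocyte genes, mitochondrial genes and Malat1 in the result was not tested. Among cells above 0 for the T cell marker score, 0 of the 58 members passed limma and 0 of all genes did. There 12 members had an unadjusted p under 0.05, all as higher. Of all genes 383 were higher and 26 lower at that level (14% in either direction). Srsf3 (0.257, limma adjusted p = 0.157) had the smallest p of the members. The median difference was 0.078 over members and 0.049 over all genes. With the cell mean subtracted 7 members were higher and 4 lower, beside 11.7% and 8.76% of all genes. The higher ones were Rbm39 (0.188), Snrpe (0.151), Hnrnpl (0.150), Rbm3 (0.143), Srsf3 (0.143), Snrpb (0.140) and Hnrnpa2b1 (0.118), and the lower ones Rbm34 (-0.182), Sf3a3 (-0.115), Sf3a2 (-0.105) and Prpf3 (-0.102). All 11 had passed the comparison by T cell marker score on the same scale with the same sign, a comparison that uses the same cells. With medians over cells in place of means 11 members were higher and 0 lower, beside 15.4% and 1.68% of all genes. Without cells high in Kcnq1ot1 the counts were 18 and 0 (23% and 0.376%), and with the cell mean subtracted after SD division 5 and 2 (9.51% and 9.1%), both settings chosen after the data were seen. Of the 76 other splicing genes 52 were higher and 1, Scaf11 (-0.139), was lower as deposited, where 59.9% and 4% of all genes were.

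Trained and untrained samples were then compared within each class to ask whether wheel running went with other splicing scores in the T cells of the injured brain. By limma 0 of 58 members passed in all sorted cells, where 0% of 2926 genes did, and 0 passed within the cells above 0 for the T cell marker score or within either gate. Over all sorted cells the mean of untrained sample 2 was fixed at 0 for 41 members, as given above. For these members the comparison in all sorted cells, with its counts, cannot decide on training, because that value was set by the processing. At an unadjusted p under 0.05 there were 4 members higher and 2 lower in trained samples over all sorted cells, 3 and 0 in cells above 0 for the T cell marker score, 9 and 1 in the CD8 gate, and 0 and 2 in the CD4 gate. The shares of all genes at that level were 7.72%, 1.71%, 8.92% and 2.43% in either direction. In this order 108, 15, 229 and 12 of all genes were higher and 118, 35, 32 and 59 lower. The median difference over members was 0.006, -0.010, 0.038 and -0.032 in these 4 classes, and over all genes -3.99e-05, -0.012, 0.046 and -0.028. Without untrained sample 2 the members' median changed sign in 3 of these classes, to -0.00565 in all sorted cells, 0.015 above 0 for the T cell marker score and 0.016 in the CD4 gate. With medians over cells the members' median was 0.031, 0.061, 0.085 and 0.045 in the order above. No values of all genes are set beside those of these settings, so they show nothing particular to the members. With the limit at 0.25 the members' median was 0.008 for the T cell marker score, -0.012 in the CD8 gate and -0.023 in the CD4 gate. Over all genes it was -0.003, 0.015 and -0.030.

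Srsf2, an SR protein that acts on exonic enhancers, was among the 3 members with the smallest p on the trained side in each class. In CD8-gated cells it had mean scores of -0.095 and -0.238 in untrained samples 1 and 2 and of 0.156, 0.103 and 0.136 in trained samples 1, 2 and 3. The groups did not overlap, and the difference was 0.298 ± 0.077 (SE, unadjusted p = 7.43e-04, limma adjusted p = 0.5). In cells above 0 for the T cell marker score it stood at 0.121 and 0.117 in untrained and 0.242, 0.186 and 0.277 in trained samples, a difference of 0.116 ± 0.045 (adjusted p = 0.998). The differences were 0.066 ± 0.023 in all sorted cells and 0.155 ± 0.087 in CD4-gated cells. These 4 classes share cells, so their values are not independent. Among the 14 members named throughout, Srsf2 stood at the upper end in each class and Srsf7 at the lower end, at -0.079 in all sorted cells, -0.115 above 0 for the T cell marker score, -0.158 in the CD8 gate and -0.195 in the CD4 gate.

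Other measures also stood apart between the training groups inside the CD8 gate. The mean of all mouse genes was -0.007 ± 0.007 in untrained and 0.038 ± 0.019 in trained samples (SD, n = 2 and 3), without overlap. The 2 oligodendrocyte genes had means of 0.072 ± 0.009 in untrained and 0.172 ± 0.036 in trained samples (SD, n = 2 and 3), the 2 proliferation genes (Pcna and Tubb5) -0.012 ± 0.070 and 0.143 ± 0.031, and Malat1 -0.091 ± 0.089 and 0.110 ± 0.078, without overlap. Mitochondrial genes stood at 0.072 ± 0.069 and 0.166 ± 0.043 and the T cell marker score at 0.169 ± 0.103 and 0.237 ± 0.039, with overlap. In all sorted cells the macrophage or monocyte genes were at -0.016 ± 0.070 and -0.128 ± 0.029. Their part in the members' values was not tested.

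In CD8-gated cells Rbm39 had 0.032 and -0.079 in untrained and 0.271, 0.260 and 0.235 in trained samples, a difference of 0.279 ± 0.076 (limma adjusted p = 0.5). The trained samples lay close together and above both untrained ones. Snrpg differed there by 0.246 ± 0.085, and Rbm8a, a core protein of the exon junction complex, by -0.161 ± 0.077, both with groups that did not overlap. Groups did not overlap for 17 members higher and 4 lower in CD8-gated cells, beside 21.6% and 3.49% of all genes. In CD4-gated cells this held for 3 and 4 members (4.31% and 10.2%), in all sorted cells for 8 and 7 (11.0% and 14.0%), and in cells above 0 for the T cell marker score for 6 and 5 (6.43% and 8.34%).

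In all sorted cells Hnrnpd (0.070 ± 0.022, adjusted p = 0.518), U2af1 (0.064 ± 0.022), Rbm26 (-0.057 ± 0.022) and Srsf7 (-0.079 ± 0.032) had the smallest p beside Srsf2, and Snrpf had -0.051 ± 0.023. Hnrnpd, Srsf2, Rbm26 and Snrpf had means of 0 in untrained sample 2, within the tolerance given above. In CD4-gated cells Hnrnpa3 had 0.223 and 0.358 in untrained and -0.045, 0.122 and -0.081 in trained samples, a difference of -0.291 ± 0.093 (limma adjusted p = 0.999). Its groups did not overlap there, while in CD8-gated cells the trained samples lay above the untrained ones. Hnrnph2 (-0.245) and Prpf8, the core protein of the spliceosome's active site (-0.212), had overlapping groups, with untrained sample 2 highest in both. On the trained side in CD4-gated cells were Hnrnpd (0.142 ± 0.091) and Rbm7 (0.131 ± 0.086).

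In cells above 0 for the T cell marker score, Snrpf (-0.166 ± 0.076), Hnrnpab (-0.098 ± 0.052) and Snrpe (-0.133 ± 0.093) were lowest by p on the untrained side, with adjusted p of 0.998, and Hnrnpd (0.122 ± 0.051) and U2af1 (0.101 ± 0.043) stood with Srsf2 on the other. For Snrpf untrained sample 2 stood at 0.344, far above 0.072 in untrained sample 1 and -0.002 to 0.065 in trained samples. Without untrained sample 1, which leaves that sample alone on the untrained side and assumes it to vary like the trained ones, 3 members passed as lower in trained samples: Snrpf (-0.302, limma adjusted p = 0.0163), Snrpe (-0.295, adjusted p = 0.0373) and Hnrnpf (-0.280, adjusted p = 0.0268). All genes passed there in 4.10% as lower and 0.854% as higher. Without untrained sample 2 the difference of Snrpe was 0.030.

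**Figure D5:**
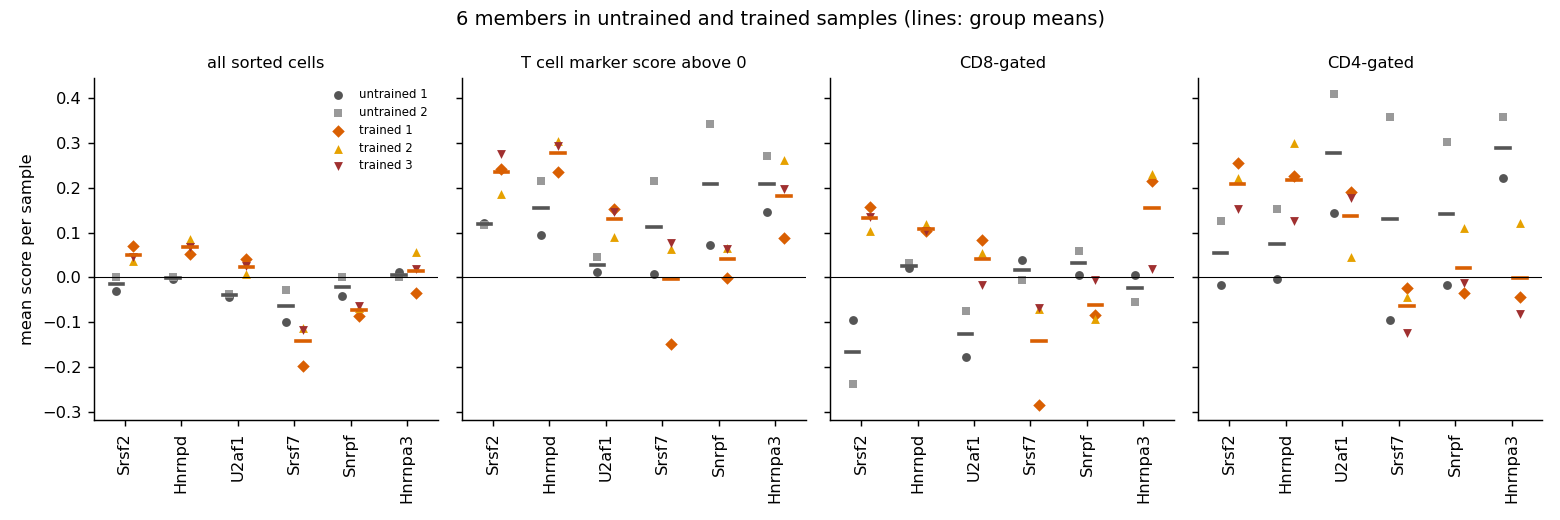
Mean score per sample of 6 members in 4 classes of cells, untrained samples on the left and trained samples on the right of each gene, with group means as lines. Srsf2 in CD8-gated cells is below 0 in both untrained samples and between 0.103 and 0.156 in the trained ones, and Snrpf above 0 for the T cell marker score has 1 untrained sample at 0.344.

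Whether the training difference varied between classes was tested directly, and 0 of 58 members passed limma for CD8-gated minus CD4-gated cells or for cells above minus at or below 0 for the T cell marker score (0% of genes in both). For the gates 6 members had an unadjusted p under 0.05, all with a larger trained-minus-untrained difference in CD8-gated cells. Of all genes 168 had a larger and 5 a smaller difference at that level (5.92% in either direction). The median was 0.066 over members and 0.078 over all genes. Hnrnpa3 had a CD8-gated minus CD4-gated difference of -0.216 and -0.413 in untrained and 0.260, 0.109 and 0.099 in trained samples, so the interaction was 0.471 ± 0.129 (unadjusted p = 0.00178, limma adjusted p = 0.758). Its sign was opposite in the groups. Groups did not overlap for 16 members with a larger and 2 with a smaller value in trained samples (18.3% and 2.57% of all genes). With the gate limit at 0.25 these counts were 8 and 3, beside 308 and 168 of all 2923 genes. The median was then 0.016 over members and 0.042 over all genes. Rbm25 (0.337 ± 0.129) and Hnrnpl (0.328 ± 0.133) followed Hnrnpa3 at the limit of 0. On the other side lay Sf3b5 (-0.148 ± 0.138), Rbm7 (-0.137 ± 0.124) and Rbm8a (-0.111 ± 0.123). Among the 14 members named throughout, values ran from -0.105 for Srsf1 to 0.339 for Rbm39. For the T cell marker score the median was 0.017 over members and 0.014 over all genes. Hnrnpd (0.189 ± 0.070), Hnrnpk (0.158 ± 0.074) and Srsf2 (0.152 ± 0.078) had larger class differences in trained samples, and Snrpf (-0.140 ± 0.093), Srsf11 (-0.089 ± 0.081) and Snrpd1 (-0.087 ± 0.069) smaller ones, with adjusted p of 0.989. At an unadjusted p under 0.05 there was 1 member (2.5% of all genes), and groups did not overlap for 10 members with a larger and 1 with a smaller value (12.1% and 4.21%).

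Some members overlap other genes in the genome. In the GENCODE M21 annotation (GRCm38) all 58 members were found by symbol, 29 overlapped another annotated gene and 12 a protein-coding one. The protein-coding partner lay on the same strand for Hnrnpm (March2) and U2af1l4 (Gm49396). Partners on the other strand included Mfsd11 and Mettl23 for Srsf2, Rmi1 for Hnrnpk, Cox20 for Hnrnpu, Gucd1 for Snrpd3 and Psenen for U2af1l4. Many hnRNP and Sm genes also have processed pseudogenes. No source used here says how reads of such copies and partners were assigned, and the values of these members are uncertain to that extent.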

How the data were processed

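Single cells from 2 untrained and 3 trained samples were read by SORT-seq after enrichment on 37% Percoll. Per the submitters' processing notes the reads went through Cell Ranger, with no version. Aligner settings and genome build are not stated there, and how values were normalised or integrated is unknown. The deposited table holds a score per gene and cell, by its values neither counts nor log counts, so no depth or counting precision could be given and no count test was used. Cells were assigned to samples by the number in their names. A second deposited table, of 384 columns, repeats part of the first and was not used.

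Mean scores per gene, sample and class were fitted with limma 3.58.1 (R 4.3.3), two-sided. P-values were adjusted by Benjamini-Hochberg over all genes tested, with 0.05 as threshold, and the genes that define a class were left out of its comparison. Class comparisons had the sample as a block, and interactions were fitted to each sample's class difference. The fits were also run on simulated data, with independent noise of reduced SD and shifts of 0.5 in 200 genes. They recovered 200, 200 and 190 of these for training, class and interaction, with 11, 10 and 10 false calls. Noise and shifts differ from those of these data, so the outcome gives no power or error rate here. Other steps used Python 3.11.15, numpy 2.4.6 and pandas 2.3.3. The labels do not match any untrained sample to a trained one, so no pairing was made.

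Named genes were all members past the threshold, up to 10 per direction by size, or the 3 with the smallest p per direction and a set of 14 members in every comparison (by range where none passed), with the 10 genes most like the members' mean. The alternatives were division by the SD over cells, subtraction of the cell mean, medians over cells, weights by cells, a limit of 0.25, removal of 52 cells above 1 for 6 myeloid genes, and leaving out each sample. Of those 52 cells, untrained samples 1 and 2 held 0 and 41, and trained samples 1, 2 and 3 held 3, 5 and 3. The members and lists were chosen with earlier results of these data known.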

Additional observations from a re-analysis of the deposited data

Results flagged for a closer look

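Among the 5 samples' differences of 48 named results between classes, 1 had a sample far from the others, where chance flags about 1 in 20. It was Srsf1 in cells above 0 for 1 coreceptor gate against neither, at 0.094 in untrained sample 1 beside 0.140 to 0.157 in the remaining samples. No difference between groups in the effect of training passed its test.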

How the results depend on the processing

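Of 993 values of named members under another setting, 897 kept their direction and their side of the threshold, 67 kept the direction and no longer passed, 9 newly passed and 20 reversed. By T cell marker score 55 members passed, 30 (24 higher and 6 lower) with the cell mean subtracted and 28 (22 and 6) with scores also divided by their SD, and between 52 and 55 without each sample in turn. For 1 gate against neither 43 passed, and 11 (7 higher and 4 lower) with the cell mean subtracted, 11 with medians over cells, 7 (5 higher and 2 lower) with the cell mean subtracted after SD division, 18 without cells high in Kcnq1ot1 and 0 among cells above 0 for the T cell marker score. The settings on Kcnq1ot1, on the T cell marker score and on SD and cell mean together were chosen after the data were seen. Between CD8-gated and CD4-gated cells 0 passed, 3 with SD division and 1 among cells above 0 for the T cell marker score. For training in those cells the count was between 0 and 3 on leaving out samples 1 at a time, and stayed at 0 in the other training comparisons and interactions under every setting run.

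Reversed values are listed for the named members only. By T cell marker score they were U2af1 (-0.016 with the cell mean subtracted, -0.026 SD units with SD division as well) and Rbm34 (0.052 without cells high in Kcnq1ot1). Over all 58 members, 14 lay below 0 with SD division and cell mean subtraction, 6 of them past the threshold. As deposited 1 member lay below 0. By gates, Srsf5 reversed to -0.073 among cells above 0 for the T cell marker score, -0.015 without cells high in Kcnq1ot1 and -0.019 SD units with SD division and cell mean. With medians over cells, training values reversed for Rbm26 (0.013, all sorted cells), Snrpf (0.00641), Hnrnpab (0.078) and Snrpe (0.084) above 0 for the T cell marker score, Rbm8a (0.033, CD8-gated), and Hnrnph2 (0.000859) and Prpf8 (0.055), both CD4-gated. The interactions reversed with medians for Rbm8a (0.014), Snrpf (0.019) and Srsf11 (0.104). Leaving out samples in turn, training values ran from -0.295 to 0.030 for Snrpe, and in the interactions from -0.353 to 0.057 for Sf3b5, -0.288 to 0.00661 for Snrpf and -0.207 to 0.029 for Srsf11, each reversed without untrained sample 2 and lowest without untrained sample 1. The cause was not tested. No reversed value of a named member passed the threshold. No depth is known, and 2 against 3 samples limit what the training comparisons can show. No paired analysis was made because the labels do not say that samples with equal replicate numbers belong together.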
